A study of Mus musculus with 8 samples.

Results

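The receptors described here sense chemoattractants and extracellular nucleotides. They were 10 genes taken by name: the formyl peptide receptors Fpr1 and Fpr2, the complement receptors C5ar1 and C3ar1, the lipid mediator receptors Ltb4r1 and Ptafr, and the nucleotide receptors P2ry2, P2ry6, P2rx4 and P2rx7. Every probe whose gene name on the array equalled one of these symbols was taken, which gave 12 probes for the 10 of 31751 named genes. Expression was measured on 8 one-colour Agilent arrays in C10 cells, mouse pre-B cells of HAFTL origin in which the transcription factor C/EBPα can be switched on, after which they turn macrophage-like. The Tet2KD line expresses a short hairpin RNA against Tet2 mRNA and the control line a control short hairpin RNA, and both grew with puromycin. The 4 groups were Tet2KD cells induced for 24 h, control cells induced for 24 h, uninduced Tet2KD cells (0 h) and uninduced control cells (0 h), with 2 arrays in each. Induced cells received 100 nM estradiol with the cytokines M-CSF and IL-3, both at 10 ng/ml, so the transcription factor and the cytokines cannot be told apart. The study calls the paired arrays technical duplicates, so p-values measure only the spread between duplicate arrays of 1 line, not between cultures or clones.

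Fpr1, Fpr2, C5ar1, C3ar1, Ltb4r1 and Ptafr are G protein-coupled receptors that let phagocytes move towards bacterial formyl peptides, complement fragments, leukotriene B4 and platelet-activating factor. P2ry2 and P2ry6 are G protein-coupled receptors for extracellular nucleotides, ATP and UTP for P2ry2 and UDP for P2ry6. P2rx4 and P2rx7 are ATP-gated cation channels, and in macrophages P2rx7 opens at high ATP and triggers the NLRP3 inflammasome.

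Promoter sequences are given for the 2 receptors that were lower in Tet2KD cells at 24 h (P2ry2 and Ltb4r1) and for C3ar1, which was strongly induced in both lines. They are the 250 bases before the transcription start from RefSeq (GRCm38.p6), written 5′ to 3′ on the gene's strand. Capitals mark letters of a C/EBP motif (TTGCNNAA), a PU.1 motif (GAGGAA) or an AP-1 motif (TGANTCA), each searched on both strands.
P2ry2, chr7:101012054-101012303, minus strand: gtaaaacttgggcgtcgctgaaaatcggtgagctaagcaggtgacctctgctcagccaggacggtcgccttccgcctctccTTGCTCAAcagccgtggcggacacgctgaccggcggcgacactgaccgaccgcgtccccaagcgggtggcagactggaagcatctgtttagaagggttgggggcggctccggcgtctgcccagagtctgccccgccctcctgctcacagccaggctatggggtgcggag
Ltb4r1, chr14:55765712-55765961, plus strand: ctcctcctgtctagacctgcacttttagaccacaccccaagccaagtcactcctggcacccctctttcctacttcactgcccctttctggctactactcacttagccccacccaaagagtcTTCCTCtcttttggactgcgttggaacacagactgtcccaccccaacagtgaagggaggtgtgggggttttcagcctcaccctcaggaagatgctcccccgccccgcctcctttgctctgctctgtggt
C3ar1, chr6:122856158-122856407, minus strand: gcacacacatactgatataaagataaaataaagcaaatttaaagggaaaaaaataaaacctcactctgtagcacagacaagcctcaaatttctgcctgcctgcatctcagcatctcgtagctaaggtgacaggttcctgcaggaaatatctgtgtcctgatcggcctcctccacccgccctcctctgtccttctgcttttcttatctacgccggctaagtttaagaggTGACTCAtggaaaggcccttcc

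The P2ry2 window held 1 C/EBP match, the Ltb4r1 window 1 PU.1 match and the C3ar1 window 1 AP-1 match. Among 32851 such windows of 250 bases, 9.56% held the C/EBP letters, 23.3% the PU.1 letters and 6.75% the AP-1 letters. The P2ry2 window held 21 CpG dinucleotides, against 3 for Ltb4r1, 5 for C3ar1 and a median of 6 (quartiles 2 and 16) over all windows. A further P2ry2 entry, which overlaps the first, held 26. The CpG count was 13 for P2rx4, 6 and 4 for the P2rx7 entries, 5 for Ptafr, 2 for C5ar1, 1 for Fpr1 and 0 for Fpr2. PU.1 letters also stood in the Fpr2 and Ptafr windows and AP-1 letters in 1 of the P2rx7 windows. P2ry6 was not matched to a promoter entry. These matches describe letters in a window and were not tested for binding.

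Values are levels on 1 probe, given as a percentage of the array's 75th percentile of signal. Levels of different probes are not compared, apart from the summed marker lists, which add probes of different genes. A probe counted as detected on an array where the scanner software marked it well above background. The 75th percentile of the processed signal lay between 722 and 1435 intensity units and 47.4% to 55.6% of spots were well above background. A gene was called where limma's adjusted p was under 0.05 over the 16153 genes tested and the change was at least 2-fold. Where no array of the dimmer group was detected, the fold is a lower bound against the lowest detected signal of those arrays. A gene with such a bound in both inductions passed the detection filter through 1 time alone, which fixes the direction of its change. Tet2 itself was not called lower in the Tet2KD line on either kept probe. On its main probe it had 95.2% and 104% in Tet2KD cells and 98% and 100.5% in control cells at 24 h, and 35.0% and 40.6% in Tet2KD cells and 42.5% and 38.9% in control cells at 0 h. The Tet2KD level was 100.4% of control at 24 h (95% interval 84.5 to 119, adjusted p = 0.98) and 92.8% at 0 h (78.1 to 110.2, adjusted p = 0.53). The other kept Tet2 probe had log2 differences of 0.16 at 24 h (adjusted p = 0.49) and -0.28 at 0 h (-0.62 to 0.05, adjusted p = 0.23). A further Tet2 probe did not pass the detection filter. Every comparison of the lines is therefore a comparison of the libraries so labelled.

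Markers of the labelled cell types moved with induction. Of 12 pre-B markers, 6 fell in Tet2KD cells and 8 fell in control cells, Rag2, Dntt and Rag1 among both, where 15.4% of all genes tested were called lower in Tet2KD cells and 13.1% in control cells. Of 9 tested macrophage markers 7 rose in each line, where 16.7% of all genes were called higher in Tet2KD cells and 14.2% in control cells, Cd14 among them, by 479-fold in Tet2KD cells and 576-fold in control cells. The defining macrophage marker Adgre1 (F4/80) was detected in too few arrays to be tested. Of other cell types' lists, 4 of 9 neutrophil, 3 of 7 T cell, 5 of 7 dendritic and 2 of 6 stromal markers were tested. Induction raised 3 of the 4 neutrophil markers and lowered 1 in Tet2KD cells (median log2 change 3.43). In control cells it raised 3 and lowered none (median 4.93). Of the T cell markers 1 of 3 rose in each line, and of the stromal markers 1 of 2, with none lower. The shares of all genes are those given above. Each sum below adds the signals of all list genes on the array, tested or not, so its brightest probes dominate it. The summed neutrophil markers lay at 5981% to 6093% in Tet2KD cells and 4954% to 5319% in control cells at 24 h, and at 2475% to 2910% in Tet2KD cells and 2217% to 2275% in control cells at 0 h. For the difference between the inductions 3 of 9 tested macrophage, 1 of 5 dendritic and 1 of 2 stromal markers were called higher. The share of all genes tested called higher was 2.36%. Of the 4 tested neutrophil markers, S100a8 alone was called for that difference (-3.11 ± 0.55, adjusted p = 0.021, list median -0.19), where 1.46% of all genes tested were called lower. That call was lost without the detection filter and when any Tet2KD array or either control array at 24 h was left out (adjusted p 0.054 to 0.074). The summed T cell markers lay at 359% to 494% in Tet2KD cells and 326% to 450.3% in control cells at 24 h, and at 171% to 244% in Tet2KD cells and 192% to 217% in control cells at 0 h. The summed dendritic markers lay at 2336% to 2701% in Tet2KD cells and 2767.5% to 3022% in control cells at 24 h, and at 3862% to 4213% in Tet2KD cells and 3172% to 3807% in control cells at 0 h. Siglech, the brightest tested gene of that list, made up most of the sum and was not called (log2 change -0.73 in Tet2KD cells, -0.31 in control cells). Of 5 tested dendritic markers, induction raised 3 in Tet2KD cells and 2 in control cells. None was called lower, and the shares of all genes called higher were 16.7% and 14.2%. Itgax rose at least 14.3-fold in Tet2KD cells and at least 28-fold in control cells. Itgax and Clec9a, the 2 called in control cells, were detected on no 0 h array. The detection filter thus fixed the direction of their rise, and the dendritic counts only describe the list. The summed stromal markers lay at 682.5% to 692% in Tet2KD cells and 998% to 1015% in control cells at 24 h, and at 18.2% to 21.7% in Tet2KD cells and 64.7% to 68.2% in control cells at 0 h, with Col1a1, Col3a1, Pdgfra and Dcn not tested. The part of these other cell types in the receptor values was not tested, and in bulk RNA fewer cells with a transcript and less transcript per cell cannot be told apart.

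Induction raised most of the receptors that were measured. In Tet2KD cells 7 of the 8 tested receptors were called higher at 24 h and none lower, where 16.7% of all genes tested were called higher, and in control cells 7 of 8 were called higher and none lower, where 14.2% of all genes tested were. C5ar1 missed the call in Tet2KD cells, and P2rx7 missed it in control cells because its change was under 2-fold. C5ar1, C3ar1, Ltb4r1, Ptafr and P2ry2 passed the detection filter through the 24 h groups alone, which fixes the direction of their induction, so these counts describe the receptors and support nothing further. Over all genes 2700 were called higher and 2494 lower in Tet2KD cells, a split that became 2172 and 3386 when arrays were scaled to their median.

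The size of the induction of dim receptors depended on the background correction. The normexp correction adds an offset of 50 intensity units, which by its construction shrinks changes of signals near background. With normexp and quantile normalization the log2 changes in Tet2KD cells and control cells were 4.33 and 4.90 for C3ar1, 2.78 and 5.15 for Ltb4r1, 2.24 and 5.12 for P2ry2, 1.12 and 1.09 for Ptafr, 1.07 and 2.39 for C5ar1, and 7.39 and 6.75 for P2ry6, which had a detected but low signal at 0 h. All of these were called under that setting, but they lie below the folds and bounds given for the background-subtracted signal. The 24 h differences between the lines, taken between detected signals, were -2.61 for P2ry2 and -2.32 for Ltb4r1 under that setting, both called.

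**Figure D1:**
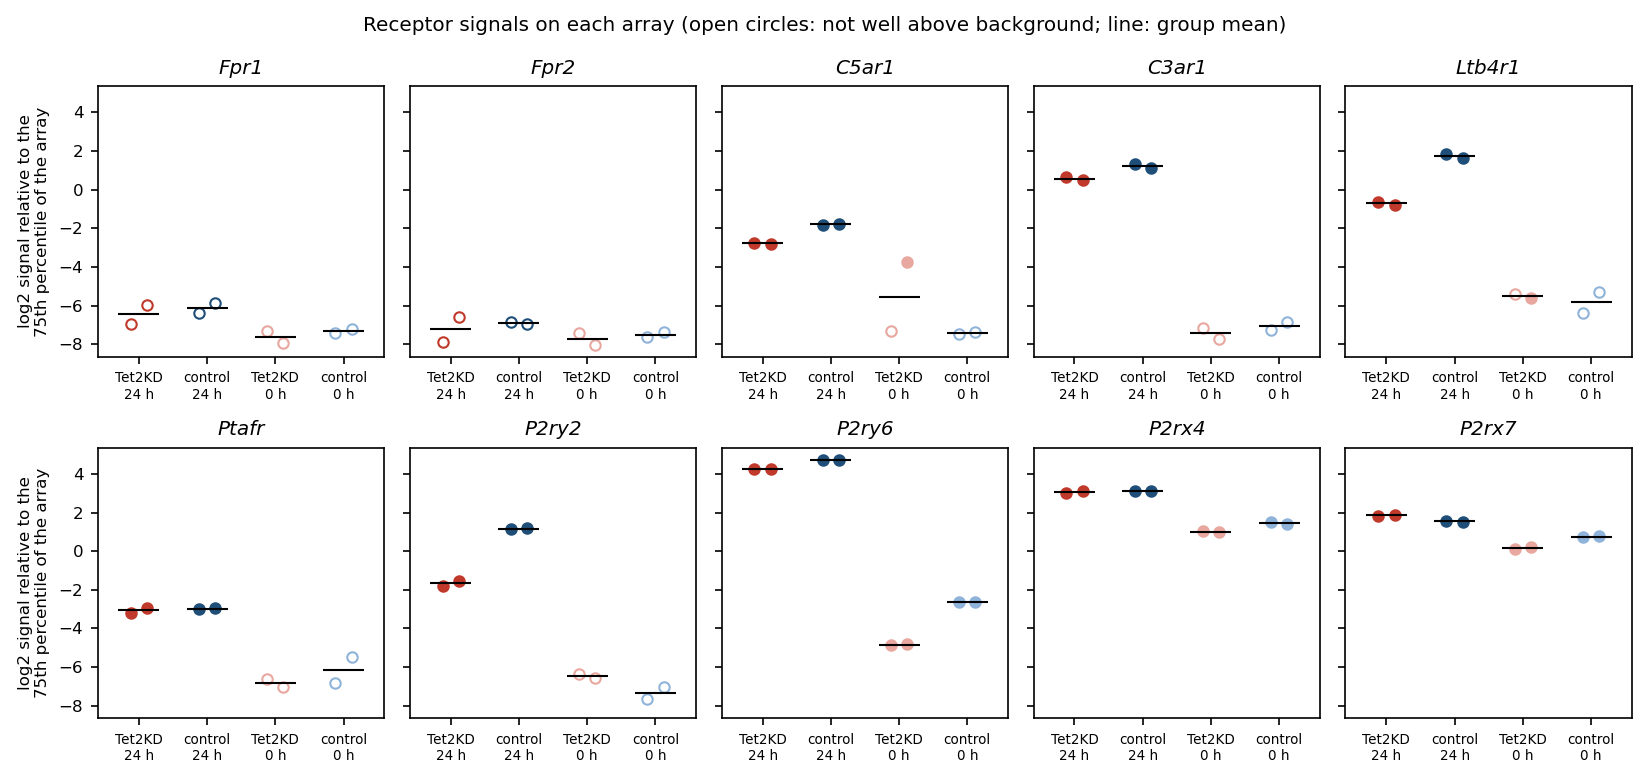
Signal of each receptor on each array, as log2 relative to the array's 75th percentile (y axis), for Tet2KD 24 h, control 24 h, Tet2KD 0 h and control 0 h (x axis). Each circle is an array, open where the probe was not well above background, and the line is the mean of the 2 arrays. Fpr1 and Fpr2 are open on all 8 arrays, Ltb4r1 and P2ry2 separate the lines by over 2-fold at 24 h, and P2ry6 does so at 0 h. Panels share an axis for layout, but levels of different probes are not comparable.

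The formyl peptide receptors were not detected. Fpr1, the high-affinity formyl peptide receptor, had 0.802% and 1.61% in Tet2KD cells and 1.17% and 1.73% in control cells at 24 h, and 0.635% and 0.414% in Tet2KD cells and 0.592% and 0.681% in control cells at 0 h. Fpr2, which also binds lipid and peptide ligands such as annexin A1, had 0.423% and 1.03% in Tet2KD cells and 0.88% and 0.806% in control cells at 24 h, and 0.579% and 0.385% in Tet2KD cells and 0.499% and 0.61% in control cells at 0 h. Neither probe was well above background on any of the 8 arrays, so neither gene was tested and only a bound on its level exists. Their probes lie at chr17:18013609-18013668 and chr17:18030540-18030599 (mm9), 16.9 kb apart.

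Both complement receptors were detected at 24 h in both lines. C3ar1, the receptor for the complement fragment C3a, had 155% and 141% in Tet2KD cells and 248% and 214.5% in control cells at 24 h, and 0.703% and 0.467% in Tet2KD cells and 0.646% and 0.87% in control cells at 0 h. No 0 h array was detected. The probe passed the detection filter through the 24 h groups alone, which fixes the direction of its induction, so the values below describe its size. The rise was at least 67.4-fold in Tet2KD cells (adjusted p = 3.5e-06) and at least 92.4-fold in control cells (adjusted p = 3.7e-06).

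At 24 h the Tet2KD values of C3ar1 lay below the control values without overlap, at 63.9% of control (95% interval 42.4 to 96.5), but the difference did not pass the test (adjusted p = 0.14). The error takes in the spread of undetected 0 h arrays. The p threshold was passed with quantile normalization (adjusted p = 0.025), normexp and quantile normalization (0.012) and the value table (0.012), each under 2-fold. It was missed under the other scalings, filters and models (0.073 to 0.42). The difference of the fitted log2 changes was -0.26 (95% interval -1.10 to 0.58, adjusted p = 0.65). The probe lies at chr6:122798222-122798281 (mm9).

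C5ar1, the receptor for the neutrophil and macrophage attractant C5a, had 14.9% and 14.2% in Tet2KD cells and 28.5% and 28.7% in control cells at 24 h, and 0.631% and 7.31% in Tet2KD cells and 0.57% and 0.611% in control cells at 0 h. The second Tet2KD array at 0 h stood apart from the other 0 h arrays and was the only one of them with the probe detected. In control cells C5ar1 rose at least 11.5-fold (adjusted p = 0.0053), a direction fixed by the detection filter, which it passed at 24 h alone. In Tet2KD cells the log2 change was 2.76 ± 1.07 (SE) and was not called (adjusted p = 0.063).

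Without the array that stood apart, the Tet2KD change of C5ar1 was 4.53 and was called (adjusted p = 1.7e-05), and it was also called under 5 other settings of the processing. At 24 h Tet2KD cells had 50.9% of the control level of C5ar1 with no overlap of the arrays, but the error, which takes in the spread of the Tet2KD pair at 0 h, gave a 95% interval of 8.03% to 323% (adjusted p = 0.6). The difference between the inductions was -2.84 ± 1.51 and was not called (adjusted p = 0.26), against -1.07 (adjusted p = 0.018) without the array that stood apart and -4.60 (adjusted p = 0.0016) without its duplicate, both called. The Tet2KD induction of C5ar1 and the difference between the inductions thus rested on which of these 2 arrays was used. Its 24 h log2 difference did not, and stayed between -1.01 and -0.94 when each array was left out. In a fit to the compared groups alone it was -0.97 (adjusted p = 0.026), under the 2-fold limit. Its probe is at chr7:16832243-16832302 (mm9).

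Of the lipid mediator receptors, Ltb4r1 separated the lines at 24 h and Ptafr did not. Ltb4r1, the high-affinity receptor for leukotriene B4, had 64.6% and 57.9% in Tet2KD cells and 357% and 315% in control cells at 24 h, and 2.40% and 2.06% in Tet2KD cells and 1.21% and 2.54% in control cells at 0 h. The lines did not overlap at 24 h and overlapped at 0 h, where 1 of the 2 Tet2KD arrays and neither control array was detected. Ltb4r1 rose 27.5-fold in Tet2KD cells (log2 change 4.78 ± 0.34, adjusted p = 7.9e-05) and at least 134-fold in control cells (adjusted p = 1.6e-05). It passed the detection filter at 24 h alone, which fixes the direction of these rises.

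At 24 h Tet2KD cells had 18.2% of the control level of Ltb4r1 (95% interval 10.1 to 33.0, log2 difference -2.45 ± 0.34, adjusted p = 0.012). The induction was smaller in Tet2KD cells by 2.80 ± 0.48 on the log2 scale as fitted (difference -2.80, adjusted p = 0.021), a value that rests on signals near background at 0 h. Both calls were lost when all probes were tested without the detection filter (adjusted p = 0.069 at 24 h, 0.12 for the difference). The 24 h call was also lost when any 1 of the 4 arrays at 24 h was left out, with adjusted p from 0.06 to 0.075 and the log2 difference between -2.55 and -2.36, and the call for the difference was lost when any Tet2KD array or either control array at 24 h was left out (adjusted p 0.055 to 0.074). The probe lies at chr14:56387175-56387234 (mm9).

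Ptafr, the receptor for platelet-activating factor, had 11% and 13.1% in Tet2KD cells and 12.4% and 12.8% in control cells at 24 h, and 1.01% and 0.756% in Tet2KD cells and 0.885% and 2.20% in control cells at 0 h. The lines overlapped at both times, and no 0 h array was detected. As the detection filter was passed at 24 h alone, the direction of the induction was fixed. Ptafr rose at least 5.47-fold in Tet2KD cells (adjusted p = 0.00053) and at least 5.04-fold in control cells (adjusted p = 0.0012). At 24 h Tet2KD cells had 95.2% of the control level, with a 95% interval of 45.5% to 199% (adjusted p = 0.94), so differences within that interval are not excluded. The error takes in the spread of undetected 0 h arrays. The log2 standard deviation was 0.93 in control cells at 0 h, against 0.18 in Tet2KD cells and 0.03 in control cells at 24 h. Ptafr was probed at chr4:132136722-132136781 (mm9).

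The P2Y receptors were called between the lines at different times, P2ry2 at 24 h and P2ry6 at 0 h, while P2ry6 differed by less than 2-fold at 24 h. P2ry2, which is known to guide phagocytes towards ATP and UTP from dying cells, had 29.0% and 34.5% in Tet2KD cells and 219.9% and 230.4% in control cells at 24 h, and 1.21% and 1.06% in Tet2KD cells and 0.488% and 0.772% in control cells at 0 h. No 0 h array was detected, and at 24 h the lines did not overlap. Passing the detection filter at 24 h alone fixes the direction of its induction. P2ry2 rose at least 14.5-fold in Tet2KD cells (adjusted p = 1.6e-05) and at least 90.1-fold in control cells (adjusted p = 3e-06).

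At 24 h the P2ry2 level in Tet2KD cells was 14.1% of control (95% interval 9.48 to 20.8, log2 difference -2.83 ± 0.23, adjusted p = 0.0029), and the direction was the same on both slides (-2.92 and -2.74). The difference between the inductions was -3.72 ± 0.32 on the log2 scale (adjusted p = 0.0052), a fitted value that includes undetected 0 h signals. The probe lies at chr7:108145553-108145612 (mm9), and the promoter with the C/EBP letters above belongs to this gene.

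P2ry6, the UDP receptor that is known to promote phagocytosis in microglia, had 1896% and 1916% in Tet2KD cells and 2631% and 2652.5% in control cells at 24 h, and 3.41% and 3.54% in Tet2KD cells and 16.4% and 16% in control cells at 0 h. It was detected on every array, and the lines did not overlap at either time. The rise was 548-fold in Tet2KD cells (log2 change 9.10 ± 0.05, adjusted p = 3e-07) and 163-fold in control cells (7.35 ± 0.05, adjusted p = 6.9e-07).

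At 0 h Tet2KD cells had 21.5% of the control level of P2ry6 (95% interval 19.6 to 23.6, adjusted p = 0.00017). At 24 h they had 72.2% (65.7 to 79.2, adjusted p = 0.0074), which was under the 2-fold limit and did not pass the p threshold with scaling to the array median (adjusted p = 0.32) or without the detection filter (0.11). The induction was larger in Tet2KD cells, by 1.75 ± 0.08 on the log2 scale (adjusted p = 0.0013). This probe was printed in 10 spots per array, whose coefficient of variation was 2.43% to 5.75% on 6 arrays but 17.3% and 19.4% on the Tet2KD arrays at 0 h, where 9 and 10 spots were used. With the normexp background correction the difference between the inductions was 0.64 after quantile normalization and 0.71 after scaling to the 75th percentile, both under 2-fold, and 0.64 in the deposited value table. The 0 h difference stayed called under these settings, at -1.10, -1.20 and -1.10. P2ry6 was probed at chr7:108086149-108086208 (mm9).

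**Figure D2:**
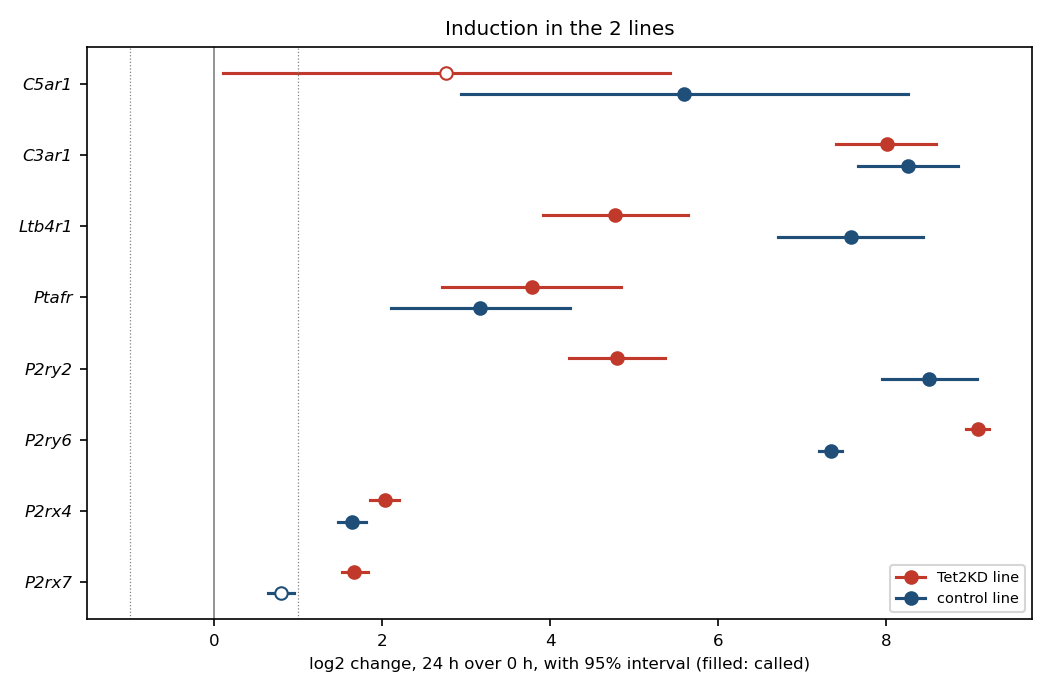
Log2 change, 24 h over 0 h (x axis) with its 95% interval for the 8 tested receptors (y axis), Tet2KD line above control line. Filled points were called, and dotted lines mark a 2-fold change. P2ry6 changed by 9.10 in Tet2KD cells and 7.35 in control cells, while P2ry2 and Ltb4r1 changed less in Tet2KD cells. Values of C5ar1, C3ar1, Ltb4r1, Ptafr and P2ry2 use undetected 0 h signals and are fitted values.

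The ATP-gated channels were detected on every array. Both were called higher at 24 h in Tet2KD cells, P2rx4 alone was called in control cells, and neither was called between the lines. P2rx4 had 795% and 851% in Tet2KD cells and 872% and 863% in control cells at 24 h, and 203% and 201% in Tet2KD cells and 289% and 267% in control cells at 0 h. The lines did not overlap at either time. P2rx4 rose 4.08-fold in Tet2KD cells (2.03 ± 0.07, adjusted p = 4.9e-06) and 3.12-fold in control cells (1.64 ± 0.07, adjusted p = 1.2e-05). The Tet2KD level was 94.9% of control at 24 h (95% interval 84.4 to 106.7, adjusted p = 0.51) and 72.5% at 0 h (64.5 to 81.5, adjusted p = 0.014), under the 2-fold limit. The 0 h difference did not pass the p threshold with scaling to the array median (adjusted p = 0.56), without the detection filter (0.15) or in a fit to the compared groups alone (0.091). Its inductions differed by 0.39 (0.15 to 0.63, adjusted p = 0.05), which was not called. The probe lies at chr5:123178983-123179042 (mm9).

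P2rx7 was measured by 3 probes, and the brightest stood for the gene. That probe had 356.5% and 367% in Tet2KD cells and 298% and 289% in control cells at 24 h, and 109.7% and 117% in Tet2KD cells and 167.5% and 170.4% in control cells at 0 h. The Tet2KD arrays were the highest at 24 h and the lowest at 0 h, with no overlap at either time. P2rx7 rose 3.19-fold in Tet2KD cells (1.67 ± 0.06, adjusted p = 6.7e-06). In control cells the change was 1.74-fold (0.80 ± 0.06, adjusted p = 0.00012) and was not called.

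The Tet2KD level of P2rx7 was 123% of control at 24 h (95% interval 111 to 137, adjusted p = 0.032) and 67.1% at 0 h (60.4 to 74.6, adjusted p = 0.0058). The inductions differed by 0.88 (0.66 to 1.09, adjusted p = 0.0066). All 3 differences were under 2-fold. None of them passed the p threshold with scaling to the array median (adjusted p = 0.8 at 24 h, 0.39 at 0 h and 0.34 for the inductions) or without the detection filter (0.28, 0.084 and 0.086), and the 24 h difference also missed it with normexp and quantile normalization (adjusted p = 0.23).

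The other P2rx7 probes are assigned to other transcript records. The probe at chr5:123120528-123123413 (mm9, plus strand) has 60 bases over a span of 2886 bases, so it crosses at least 1 splice junction, and it is shown because it moved as the main probe did.
P2rx7 probe A_51_P506733: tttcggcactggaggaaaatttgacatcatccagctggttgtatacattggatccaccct

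This junction probe had 14.6% and 13.7% in Tet2KD cells and 12.7% and 11.5% in control cells at 24 h, and 5.52% and 4.37% in Tet2KD cells and 8.66% and 8.74% in control cells at 0 h. The log2 change was 1.53 ± 0.12 in Tet2KD cells (adjusted p = 0.00013, called) and 0.48 ± 0.12 in control cells (adjusted p = 0.018, not called), and the inductions differed by 1.05 ± 0.18 (adjusted p = 0.02, called). The Tet2KD change fell under 2-fold with normexp (0.65 and 0.96). The call for the difference was lost under 5 of the scalings and corrections tried, with values of 0.42 to 0.94, and without the detection filter (adjusted p = 0.13). It was also lost when any 1 of 7 arrays was left out, all but the first Tet2KD array at 0 h.

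The third probe, at chr5:123105174-123105233 (mm9), is listed under the record of transcript variant 4 and moved alike in both lines. It had 57.3% and 60.9% in Tet2KD cells and 63.8% and 64.4% in control cells at 24 h, and 23.4% and 20.5% in Tet2KD cells and 26.3% and 21.8% in control cells at 0 h. The log2 change was 1.43 ± 0.11 in Tet2KD cells (adjusted p = 0.00012) and 1.42 ± 0.11 in control cells (adjusted p = 0.00014). The inductions differed by 0.01, with a 95% interval of -0.39 to 0.41. The difference between this probe and the other probes was not tested. The main probe lies at chr5:123134194-123134253 (mm9).

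**Figure D3:**
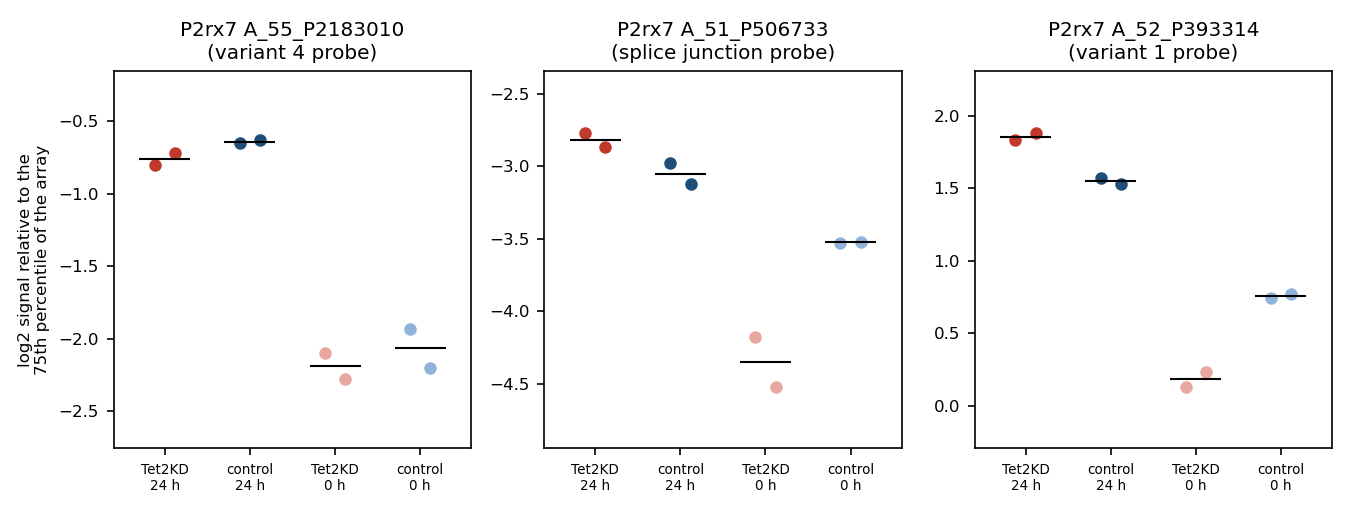
Signal of the 3 P2rx7 probes on each array, as log2 relative to the array's 75th percentile (y axes of equal length, different position), for Tet2KD 24 h, control 24 h, Tet2KD 0 h and control 0 h. Each circle is an array and the line is the mean of the 2 arrays. At 0 h the Tet2KD arrays lie below the control arrays on the splice junction probe and the variant 1 probe and overlap them on the variant 4 probe.

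Between the lines, few receptors differed by 2-fold or more. At 24 h P2ry2 and Ltb4r1 were called lower in Tet2KD cells, which is 2 of 8 tested where 0.997% of all genes tested were called lower, and no receptor was called higher. At 0 h P2ry6 alone of the 8 was called lower, where 1.39% of all genes tested were, and none was called higher. For the difference between the inductions, P2ry6 was called higher (background 2.36%) and P2ry2 and Ltb4r1 lower (background 1.46%). Over all genes the difference was called higher for 381 and lower for 236, a split that became 102 and 110 with scaling to the array median.

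**Figure D4:**
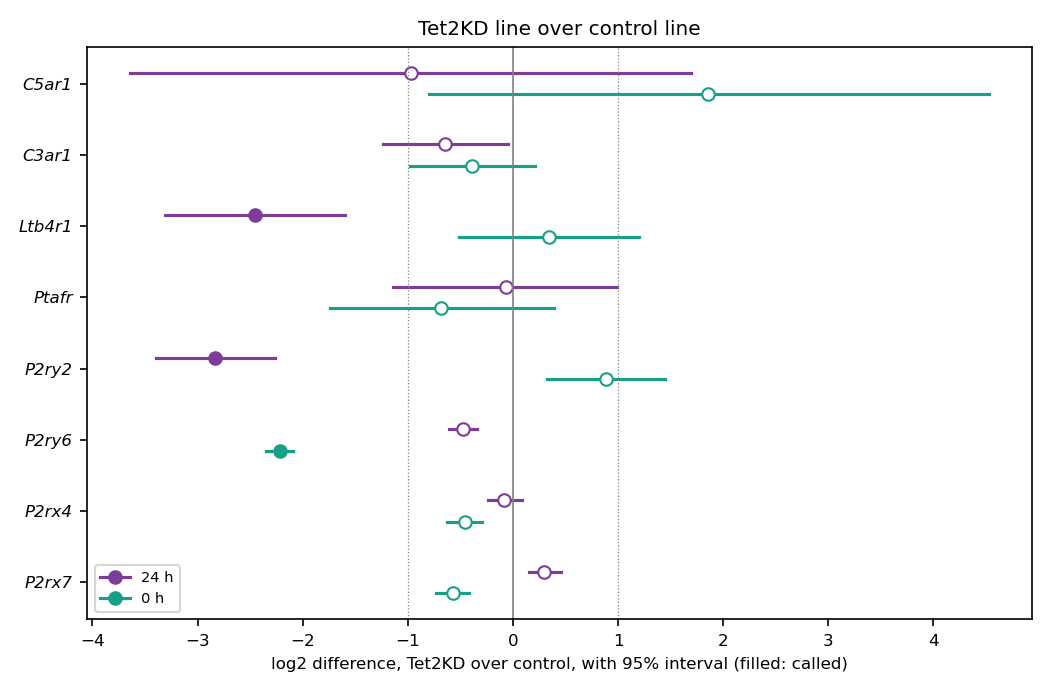
Log2 difference of Tet2KD over control (x axis) with its 95% interval for the 8 tested receptors (y axis), 24 h above 0 h. Filled points were called, and dotted lines mark a 2-fold difference. P2ry2 (-2.83) and Ltb4r1 (-2.45) lie below -1 at 24 h and P2ry6 (-2.22) at 0 h, while the C5ar1 intervals are the widest of the 8.

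Some of the receptor genes are neighbours on their chromosomes. The probes of P2ry2 and P2ry6 lie 59.4 kb apart and those of P2rx7 and P2rx4 at least 44.8 kb apart, with 0 protein-coding genes of the reference list between the members of each pair, as for Fpr1 and Fpr2. At 24 h the log2 difference of Tet2KD over control was -2.83 for P2ry2 and -0.47 for its neighbour P2ry6, with 95% intervals of -3.40 to -2.26 and -0.61 to -0.34. At 0 h it was -0.57 for P2rx7 and -0.46 for its neighbour P2rx4. Differences between the genes of a pair were not tested.

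The genes whose profile over the 8 arrays lay nearest to each receptor were named by the distance between centred log2 profiles. All of these profiles share the step from 0 h to 24 h, so high correlations are common, and the correlation is given as a description. For P2ry2 they were Tnfsf14, a cytokine of the tumour necrosis factor family (distance 1.07, r = 0.995), and Anxa2, a calcium-dependent membrane-binding protein (1.59, r = 0.987). Tnfsf14 averaged -1.46 in Tet2KD cells and 1.15 in control cells at 24 h on the log2 scale relative to the 75th percentile. For Ltb4r1 they were Ccl7, a monocyte-attracting chemokine (1.11, r = 0.996), and Rab44 (1.17, r = 0.992). For P2ry6 they were Cd74, the invariant chain of MHC class II (0.69, r = 0.999), and Lrrc25 (1.02, r = 0.998). Cd74 averaged -3.09 in Tet2KD cells and -1.29 in control cells at 0 h.

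Further profiles were nearest to the other receptors. C3ar1 lay nearest to Gm2511 (0.53, r = 0.999) and Fcnb, a ficolin of the lectin complement pathway (0.75, r = 0.998). C5ar1 lay nearest to Abtb2 (1.62, r = 0.972) and Spp1, osteopontin (1.82, r = 0.985). Ptafr lay nearest to 2 probes without a gene name in the tables used (0.50 and 0.75). P2rx4 lay nearest to Tmem198b (0.14, r = 0.999) and Plxnb2, a semaphorin receptor (0.18, r = 0.998), and P2rx7 to Isoc2b (0.15, r = 0.997) and Cpq, a carboxypeptidase (0.16, r = 0.997).

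Genes of the same families and pathways were counted by the same call. Where a listed gene was undetected at 0 h in both lines, the detection filter fixed its direction, so the counts describe the lists. Of all genes tested, 16.7% were called higher and 15.4% lower in Tet2KD cells, and 14.2% higher and 13.1% lower in control cells. Of 15 other purinergic receptors 11 were tested. In Tet2KD cells 8 rose and 1 fell (median log2 change 1.75, against 0.14 over all genes), and in control cells 5 rose and 1 fell (median 1.07, against 0). P2ry14, a receptor for UDP-glucose, rose 6.56-fold in Tet2KD cells and 4.05-fold in control cells. The adenosine receptor gene Adora2b rose 8.97-fold in Tet2KD cells and 16.5-fold in control cells, with 1 of 2 arrays detected in each line at 0 h. P2ry10, a lysophospholipid receptor, fell in both lines (-1.77 in Tet2KD cells and -2.18 in control cells on the log2 scale). P2rx3, an ATP-gated channel best known from sensory neurons, was called higher in Tet2KD cells (1.63) but not in control cells (0.52), and the difference of 1.10 was called (adjusted p = 0.0057).

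Of 12 other chemoattractant receptors 5 were tested, and 3 rose in Tet2KD cells (median 1.12, with 16.7% of all genes called higher) and 2 in control cells (median 0.17, with 14.2%). Gpr183, an oxysterol receptor, rose 53.6-fold in Tet2KD cells and 29.5-fold in control cells. Ccrl2, which binds chemerin, rose 4.79-fold in Tet2KD cells and 4.51-fold in control cells. C5ar2, a C5a receptor that does not couple to G proteins, rose 2.04-fold in Tet2KD cells and had a log2 change of -0.38 in control cells, a called difference of 1.41 (adjusted p = 0.0098).

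Genes that make or clear the ligands were also measured. Of 16 genes for chemoattractant ligands and their supply 11 were tested, and 4 rose in each line with none lower (medians 1.00 in Tet2KD cells, with 16.7% of all genes called higher, and 0.78 in control cells, with 14.2%). Cfp, properdin of the alternative complement pathway, rose 137-fold in Tet2KD cells and 116-fold in control cells. Alox5ap, needed for leukotriene synthesis, rose 12.5-fold in Tet2KD cells and 13.1-fold in control cells, and Anxa1, whose protein is a ligand of Fpr2, rose 11.8-fold in Tet2KD cells and 16.3-fold in control cells. Of 14 genes for nucleotide release and removal 7 were tested, and 2 rose and 2 fell in each line (medians -0.54 in Tet2KD cells and -0.43 in control cells). Of all genes 16.7% were called higher and 15.4% lower in Tet2KD cells, and 14.2% higher and 13.1% lower in control cells. Entpd7, a nucleotidase, rose at least 2.08-fold in Tet2KD cells and at least 2.53-fold in control cells, although the control change was under 2-fold with normexp. Alpl, alkaline phosphatase, fell by 2.57 on the log2 scale in Tet2KD cells and by 2.39 in control cells. Ada, which deaminates adenosine, fell by 1.57 in Tet2KD cells and by 1.5 in control cells.

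Of 29 signalling partners of G protein-coupled receptors 26 were tested, and 10 rose and 1 fell in Tet2KD cells (median 0.70) and 9 rose and 1 fell in control cells (median 0.50), beside 16.7% of all genes called higher in Tet2KD cells and 14.2% in control cells. Pik3r5, a regulatory subunit of the phosphoinositide 3-kinase that these receptors activate, rose 8.06-fold in Tet2KD cells and 8.88-fold in control cells. The G protein subunit genes Gnaq and Gng2 rose 3.58-fold and 4.62-fold in Tet2KD cells and 4.07-fold and 3.87-fold in control cells. Of 15 genes that switch such receptors off 12 were tested, and 7 rose in Tet2KD cells (median 1.38, with 16.7% of all genes called higher) and 8 in control cells (median 1.55, with 14.2%), with none lower. The G protein inactivators Rgs18 and Rgs14 rose 27.7-fold and 6.30-fold in Tet2KD cells and 21.3-fold and 5.46-fold in control cells, and Rgs1 rose 2.50-fold in Tet2KD cells and 4.96-fold in control cells.

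Of 10 genes around P2rx7 and the inflammasome, P2rx4 included, 8 rose in Tet2KD cells (median 1.78, with 16.7% of all genes called higher) and 6 in control cells (median 1.58, with 14.2%), with none lower. Il1b, the cytokine that the inflammasome matures, rose at least 698-fold in Tet2KD cells and at least 1223-fold in control cells. Nlrp3, the sensor, rose at least 13.8-fold in Tet2KD cells and at least 16.1-fold in control cells. Casp4, the caspase of the noncanonical inflammasome, rose 9.08-fold in Tet2KD cells and 3.95-fold in control cells, and the difference of 1.20 on the log2 scale was called (adjusted p = 0.0031). The calls for the differences of Casp4, C5ar2 and P2rx3 were lost with scaling to the array median and without the detection filter.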

How the data were processed

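Total RNA was amplified and Cy3-labelled, per the labels. Per the file headers, the arrays (probes annotated on mm9) were extracted with Feature Extraction 10.7.3.1, and the deposited intensity used was the background-subtracted, detrended processed signal. The deposited value table holds log2 values from the authors, whose processing notes name limma. It was matched by normexp (offset 50) and quantile normalization (correlation at least 0.999999 on each array, median 6.84 in each column) and was used as an alternative.

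Here log2 intensity was centred on each array's 75th percentile, spots of a probe were averaged without outlier-marked spots (155 to 219 per array, 0 saturated), and 20306 probes were kept that were well above background on the whole pair of arrays of some group. Each gene was represented by its brightest kept probe (10 of 12 receptor probes were kept). All 8 arrays entered a linear model of 4 group means (limma 3.58.1, R 4.3.3, data.table package 1.17.8, 4 residual and 1.51 prior degrees of freedom, median standard error 0.10 for a comparison of 2 groups). Tests were 2-sided with Benjamini-Hochberg adjustment over 16153 genes, and ± is the standard error of the fit. The number of arrays limits the precision. The fit was tested on simulated data.

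Replicate numbers matched the slides in the file headers, each of which holds all 4 groups and was scanned together, and same-slide arrays deviated together in all 6 pairs of groups (correlation 0.30 to 0.41), so the numbers pair the samples. The alternatives tried were median and quantile scaling, normexp, the value table, other detection filters, the mean of a gene's probes, a variance trend, the slide as a block, fits to the compared groups only and leaving out each array. The text names all receptors, and of each gene list at most 3 genes called in the control induction with the largest change and at most 2 called for the difference between the inductions. For marker lists only some of these are named. For each tested receptor the 2 nearest profiles are named. The receptors and lists were chosen with earlier results of these data known. Exon and UTR positions of the probes were not analysed here.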

Additional observations from a re-analysis of the deposited data

Results flagged for a closer look

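The following 24 h over 0 h changes differed between the Tet2KD line and the control line by the test of the difference itself (adjusted p under 0.05). Values are the Tet2KD log2 change minus the control log2 change. Among the receptors it was -3.72 for P2ry2, -2.80 for Ltb4r1, 1.75 for P2ry6 and 0.88 for P2rx7, the last under the 2-fold limit. The P2rx7 difference did not pass the p threshold with scaling to the array median (adjusted p = 0.34) or without the detection filter (0.086). On the P2rx7 splice junction probe the difference was 1.05, a call lost with median or quantile scaling, normexp, the value table or no detection filter. It was also lost when any 1 of 7 arrays was left out. The Ltb4r1 call was lost without the detection filter (adjusted p = 0.12) and when any Tet2KD array or either control array at 24 h was left out. The P2ry6 difference fell under 2-fold with normexp (0.64 and 0.71) and in the value table (0.64).

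Among the genes named from the lists it was 1.41 for C5ar2, 1.10 for P2rx3 and 1.20 for Casp4. Among the markers it was 1.36 for Fcgr1 and 1.24 for Tyrobp (macrophage), -3.11 for S100a8 (neutrophil), 2.34 for Flt3 (dendritic) and 1.41 for Sparc (stromal). All 8 of these list genes lost the call without the detection filter, and C5ar2, P2rx3, Casp4, Fcgr1, Tyrobp and Sparc also lost it with scaling to the array median. The markers named do not stand for their lists. The list medians of the difference were -0.10 for macrophage, -0.19 for neutrophil, 0.32 for dendritic and 1.40 for stromal markers. Called were 3 of 9 tested macrophage, 1 of 4 neutrophil, 1 of 5 dendritic and 1 of 2 stromal markers. Of all genes tested, 2.36% were called higher and 1.46% lower.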

How the results depend on the processing

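The total counts of receptors called, higher and lower together, held within 1.5 times under the other scalings, the value table and the variance trend. They were 7 and 7 in the Tet2KD and control inductions. For the difference between the inductions, the 1 higher call, P2ry6, was lost with normexp and in the value table, while the 2 lower calls held. The slide block changed no receptor call (counts of 7, 7, 1, 2 and 3, with P2ry6 at 1.75 for the difference between the inductions). Restricting the test to probes well above background on all 8 arrays left 3 testable receptors, with 3 called in the Tet2KD induction, 2 in the control induction, 0 at 24 h and 1 for the difference. Without the detection filter the 24 h count was 1. Leaving out each array in turn gave 7 to 8 calls in the Tet2KD induction, 7 to 7 in the control induction, 1 to 2 at 24 h, 1 to 2 at 0 h and 2 to 3 for the difference. The added 0 h calls were P2ry2 (1.22) without the second control array and C5ar1 (3.63) without the first Tet2KD array. Differences near 0 changed sign: Ltb4r1 at 0 h was -0.04 and Ptafr at 24 h 0.06 with normexp and the 75th percentile, and the difference on the P2rx7 variant 4 probe was -0.13 with median scaling, -0.07 with quantile normalization, -0.06 with normexp and quantile normalization and -0.06 in the value table. Leaving out arrays gave -0.19 to 0.88 for Ltb4r1 at 0 h, -0.20 to 0.06 for Ptafr at 24 h, -0.05 to 1.27 for the Ptafr difference, -0.55 to 0.04 for the C3ar1 difference, and, on the P2rx7 variant 4 probe, -0.26 to 0.01 at 0 h and -0.13 to 0.14 for the difference. The cause of these changes was not tested. Over all genes, the share called ran from 0.589% (no detection filter) to 2.22% at 24 h against 2.04% as reported, from 0.594% (normexp and quantile normalization) to 1.86% at 0 h against 1.73%, from 0.381% (no detection filter) to 4.18% for the difference against 3.82%, from 18.1% to 34.4% in the Tet2KD induction against 32.2%, and from 14% to 28.4% in the control induction against 27.3%. Signals near background limit C5ar1, C3ar1, Ltb4r1, Ptafr and P2ry2 at 0 h.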
